A study of Mus musculus with 6 samples.

Results

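The genes that carry cells from G1 into S phase were followed in Max-/- and wild-type mouse embryonic stem cells. The set held 10 genes, taken by gene symbol from the 55536 Ensembl genes listed in each library: the D cyclins Ccnd1, Ccnd2 and Ccnd3, the E cyclins Ccne1 and Ccne2, the cyclin-dependent kinases Cdk2, Cdk4 and Cdk6, the phosphatase gene Cdc25a and the transcription factor gene E2f1. All 10 were listed and all passed the filter on low values. RNA came from 3 libraries of Max-/- cells (Max-KO) and 3 of wild-type cells (WT), all of strain C57BL/6. How Max was disrupted, how many clones were used and the culture medium are not given in the sources used here, and neither is whether libraries of a group are separate cultures. The p-values then cover no more than the spread among these libraries.

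D cyclins bind CDK4 or CDK6 and start the phosphorylation of the retinoblastoma protein RB, which releases E2F transcription factors. E2F factors switch on genes of S phase and cyclin E, and cyclin E with CDK2 completes the phosphorylation of RB and helps to fire replication origins. CDC25A removes inhibitory phosphates from CDK2. Mouse embryonic stem cells are known for a short G1 phase and for cyclin E and CDK2 activity that varies little over the cycle. MAX is the partner that MYC proteins need to bind the E-box, and Ccnd2, Cdk4 and Cdc25a have been described as MYC targets in other cell types.

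The libraries held an estimated 21.1 to 28.6 M fragments in Max-KO and 22.6 to 25.1 M in WT, read from the steps between low values. Max itself had 35.8, 39.6 and 43.4 FPKM in Max-KO and 41.6, 50.2 and 42.3 FPKM in WT. These groups overlapped (limma, adjusted p = 0.168), and a gene-level FPKM cannot reveal a deleted exon, so Max gives no check of the labels. Of 14661 genes tested, 9703 were called (limma, Benjamini-Hochberg adjusted p under 0.05), which is 66.2%. Calls higher in Max-KO made up 43.0% of the genes tested and calls lower in Max-KO 23.2%. Over all genes tested the median log2 difference stood at 0.21 as deposited, 0.43 after rescaling to TPM, -0.02 under quantile normalization and 0.04 with median-ratio scaling. Of the calls, 64.9% were higher as deposited, against 77.7%, 46.7% and 51.4% under these 3 scalings.

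The cell type label was checked against marker genes. All 12 markers of embryonic stem cells were expressed, and they summed to 6853 to 7362 FPKM in Max-KO and 4894 to 5534 FPKM in WT. Much of this sum was Dppa5a, which averaged 4020 FPKM in Max-KO and 2510 FPKM in WT. Of the 12, 8 were called higher in Max-KO, 2 lower (Fgf4 and Utf1) and 2 neither (Pou5f1 and Esrrb). Among all genes tested 43.0% were higher and 23.2% lower. The 8 germ cell markers were all called higher and summed to 1082 to 1117 FPKM in Max-KO and 28.5 to 35.8 FPKM in WT. Tdrd1 and Taf7l among them averaged 0.47 and 0.433 FPKM in WT, under the filter of 1 FPKM, and were tested only because they were higher in Max-KO. Markers of fibroblast feeder cells, which express D cyclins and Cdk6, summed to 11.2 to 12.6 FPKM in Max-KO and 8.23 to 8.86 FPKM in WT. Of these 10 feeder markers, 6 averaged under 1 FPKM in Max-KO and 8 in WT. Of 4 feeder markers tested, 3 were called higher (Col1a1, Col6a3 and Pdgfra) and 0 lower, beside 43.0% and 23.2% of all genes tested. Col6a3 and Pdgfra averaged under 1 FPKM in WT, so they were tested only because they were higher in Max-KO. The matrix gene Dcn, not tested, averaged 0.207 FPKM in Max-KO and 0.0833 FPKM in WT, with overlapping groups. Col1a2 and Col3a1 went the other way, with Col3a1 at 0.347 FPKM in Max-KO and 0.53 FPKM in WT. Pdgfra, at 1.23 FPKM in Max-KO and 0.0533 FPKM in WT, is also in the primitive endoderm list. The 8 primitive endoderm markers summed to 6.01 to 10.9 FPKM in Max-KO and 1.97 to 2.43 FPKM in WT. The 7 mesoderm markers summed to 10.6 to 14.3 FPKM in Max-KO and 5.87 to 6.20 FPKM in WT, and the 8 trophoblast markers to 101.5 to 115 FPKM in Max-KO and 90.7 to 100.1 FPKM in WT. Most of the trophoblast sum was Krt8, Krt18 and Tfap2c. Of 7 trophoblast markers tested, 4 were called higher and 1 lower, beside 43.0% and 23.2% of all genes tested. Of those higher, Elf5, Gata3 and Krt7 averaged under 1 FPKM in WT, so they were tested only because they were higher in Max-KO. Gata3 averaged 4.06 FPKM in Max-KO and 0.27 FPKM in WT, and Ascl2 2.32 FPKM in Max-KO and 4.61 FPKM in WT. The 8 neural markers summed to 69.0 to 71.7 FPKM in Max-KO and 129 to 150.2 FPKM in WT, most of it Tubb3. All 5 neural markers tested were called lower (Pax6, Neurog1, Nes, Tubb3 and Map2), beside 23.2% of all genes tested. Neurog1 averaged 0.403 FPKM in Max-KO, so it was tested only because it was higher in WT. Sox1, not tested, went the other way, with 0.58 FPKM in Max-KO and 0.17 FPKM in WT. The part of germ cell, endoderm or other lineage genes in the differences below was not tested, and in bulk RNA fewer cells of a type and less RNA per cell cannot be told apart.

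Among the 10 genes the direction differed from gene to gene. In Max-KO, 3 genes were higher (Ccne2, Ccnd2 and Cdk2) and 5 were lower (Ccne1, Cdk4, Cdc25a, Ccnd3 and E2f1), while Ccnd1 and Cdk6 did not pass the threshold (limma). The 8 genes called stand beside 66.2% of all genes tested, the 3 higher beside 43.0% and the 5 lower beside 23.2%. Groups did not overlap for the same 8 genes, against 72.0% of all genes tested. The median log2 difference of the 10 genes was -0.29, against 0.21 for all genes tested. After rescaling to TPM 3 genes were lower in place of 5, because Ccnd3 and E2f1 no longer passed, and the 3 higher genes stayed called under each of the 3 scalings.

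**Figure D1:**
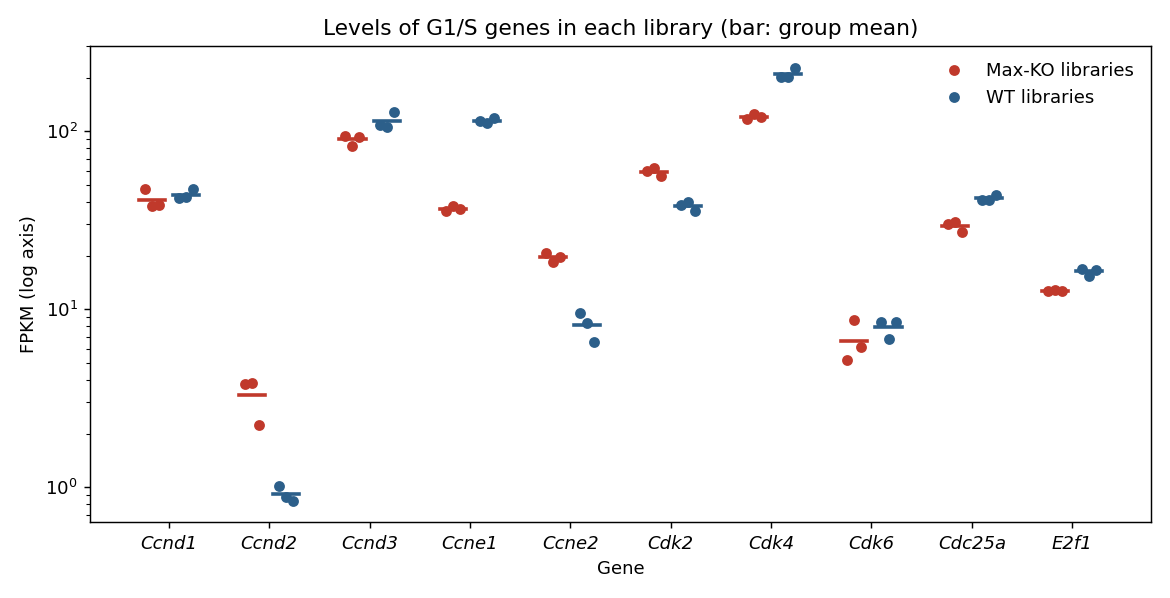
Level of each of the 10 genes in FPKM (log axis) in the 3 Max-KO and the 3 WT libraries; points are libraries and bars are group means. Ccne1 lies near 36.7 FPKM in Max-KO and 114 FPKM in WT, whereas Ccne2 and Ccnd2 lie higher in every Max-KO library.

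The E cyclins moved in opposite directions. Ccne1, which encodes cyclin E1 (ENSMUSG00000002068; GRCm38 chromosome 7, 38097984 to 38107534, minus strand), had 35.6, 38.0 and 36.5 FPKM in Max-KO, against 113.7, 110.6 and 118.6 FPKM in WT. Every Max-KO library lay far below every WT library, and the ratio of the group means was 0.321. The log2 difference was -1.61 ± 0.05 (SE, 95% interval -1.74 to -1.49; limma, adjusted p = 2.42e-06), the largest fall among the 10 genes. Among the genes tested, Ccne1 stood between percentiles 78.8 and 80.1 of level in Max-KO libraries and between 93.8 and 94.0 in WT libraries.

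Ccne2, which encodes cyclin E2, the other activator of CDK2 (ENSMUSG00000028212; chromosome 4, 11191351 to 11204779, plus strand), had 20.6, 18.5 and 19.7 FPKM in Max-KO, against 9.52, 8.37 and 6.53 FPKM in WT. All Max-KO libraries were above all WT libraries, and WT 3 was the lowest. On the log2 scale the difference was 1.18 ± 0.13 (SE, 95% interval 0.88 to 1.49; limma, adjusted p = 2.06e-04). Exons of Ints8, an Integrator subunit gene on the opposite strand, share 17.4% of the exonic bases of Ccne2, and without known strand reads in shared exons cannot be assigned. Ints8 averaged 22.9 ± 0.394 FPKM in Max-KO and 21.7 ± 3.57 FPKM in WT (SD, n = 3 each), with overlapping groups.

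The 2 E cyclins together summed to 56.2, 56.5 and 56.2 FPKM in Max-KO, against 123.2, 119.0 and 125.1 FPKM in WT. In FPKM, the rise of Ccne2 was smaller than the fall of Ccne1. Ccne1 held 63.3%, 67.3% and 65.0% of this sum in Max-KO, against 92.3%, 93.0% and 94.8% in WT. The ratio of Ccne1 to Ccne2 averaged 1.88 ± 0.167 in Max-KO and 14.4 ± 3.29 in WT (SD, n = 3 each). A single factor per library, as in rescaling to TPM or median-ratio scaling, leaves these shares and ratios as they are. Quantile normalization is not of this kind, and under it the log2 difference was -1.59 for Ccne1 and 0.92 for Ccne2.

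**Figure D2:**
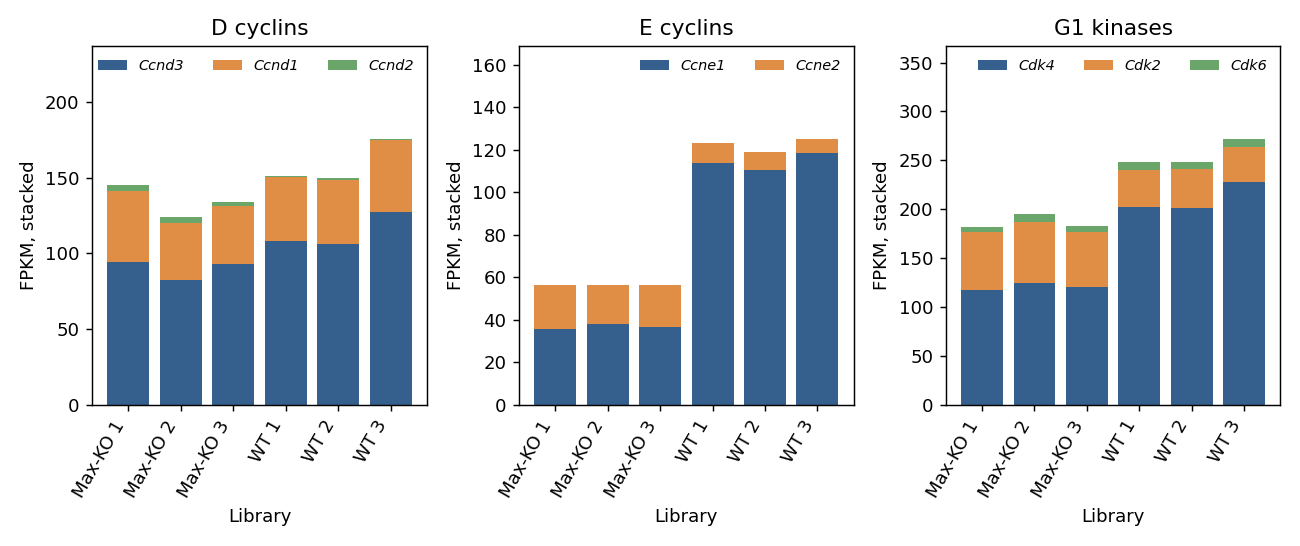
Stacked FPKM of the D cyclins, the E cyclins and the kinases Cdk2, Cdk4 and Cdk6 in each library, Max-KO 1 to 3 left of WT 1 to 3. The E cyclin stack is about 56 FPKM in Max-KO and 119 to 125 FPKM in WT, and Cdk2 takes a larger share of the kinase stack in Max-KO.

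The kinase genes differed as well. Cdk2, the partner of E cyclins (ENSMUSG00000025358; chromosome 10, 128697939 to 128705031, minus strand), had 59.4, 62.3 and 55.7 FPKM in Max-KO, against 38.4, 40.2 and 35.7 FPKM in WT. Each Max-KO library exceeded each WT library. Max-KO minus WT gave a log2 difference of 0.62 ± 0.07 (SE, 95% interval 0.46 to 0.78; limma, adjusted p = 2.26e-04). Cdk2 shares 34 exonic bases, 0.5% of its own, with Pmel, a melanosome protein gene on the opposite strand. Pmel averaged 20.1 ± 2.45 FPKM in Max-KO and 3.60 ± 0.415 FPKM in WT (SD, n = 3 each), a log2 difference of 2.20 (limma, adjusted p = 1.02e-05), and its part in the Cdk2 value was not tested.

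Cdk4, the main D cyclin kinase in these cells by level (ENSMUSG00000006728; chromosome 10, 127063534 to 127067920, plus strand), had 117.1, 124.5 and 120.6 FPKM in Max-KO, against 201.8, 201.2 and 227.8 FPKM in WT. The groups did not overlap, and WT 3 was the highest library. The log2 difference was -0.79 ± 0.06 (SE, 95% interval -0.94 to -0.64; limma, adjusted p = 5.54e-05). Exons of Tspan31, a tetraspanin gene on the opposite strand, share 19.7% of the exonic bases of Cdk4. Tspan31 averaged 50.9 ± 1.64 FPKM in Max-KO and 38.4 ± 2.80 FPKM in WT (SD, n = 3 each). It was called higher, with a log2 difference of 0.40 (limma, adjusted p = 1.60e-03), and its part in the Cdk4 value was not tested.

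Cdk6, the other D cyclin kinase (ENSMUSG00000040274; chromosome 5, 3341485 to 3531008, plus strand), had 5.19, 8.65 and 6.10 FPKM in Max-KO, against 8.43, 6.82 and 8.50 FPKM in WT. The groups overlapped, and Max-KO 2 was the highest of all 6 libraries. This was a log2 difference of -0.24 ± 0.18 (SE, 95% interval -0.66 to 0.17; limma, adjusted p = 0.258). Without Max-KO replicate 2 it was -0.42 and passed (limma, adjusted p = 0.0368), and it also passed under quantile normalization (-0.57, limma adjusted p = 0.0299). With median-ratio scaling it was -0.41 and after rescaling to TPM -0.04, and it passed under neither (limma, adjusted p = 0.073 and 0.85). The antisense genes over Cdk6, Gm17590 and Gm42435, stayed at or under 0.15 FPKM in every library. Cdk4 held 93.5% to 95.8% of the summed FPKM of Cdk4 and Cdk6 in Max-KO and 96.0% to 96.7% in WT. Among all 3 kinases, Cdk2 held 32.7%, 31.9% and 30.5% in Max-KO, against 15.5%, 16.2% and 13.1% in WT.

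Promoter sequences were taken from RefSeq (GRCm38.p6), which held a window of 250 bases before to 50 after the annotated start for 7 of the 10 genes, and not for Ccnd1, Ccnd2 and Ccne2. The windows were searched on both strands for the E-box CACGTG, the motif of MYC with MAX, and for 4 E2F motifs, TTTCCCGC, TTTGGCGC, TTTCGCGC and TTTGCCGC; no matches in the windows shown overlap. The E-box is present in 7.15% of all 32851 windows and any E2F motif in 2.26%. The windows of the 7 genes hold 56.7% to 77.3% G and C, against a median of 52.7% over all windows. Shares among windows of like G and C content were not computed. Cdk4 and Cdk6 are shown because they hold an E-box, and Cdk2 and Cdc25a because they hold an E2F motif, each with the match in capitals, 5′ to 3′ on the strand of the gene. The windows lie at chr10:127063285-127063584 (Cdk4, plus strand), chr5:3343643-3343942 (Cdk6, plus strand), chr10:128705002-128705301 (Cdk2, minus strand) and chr9:109875329-109875628 (Cdc25a, plus strand).
Cdk4: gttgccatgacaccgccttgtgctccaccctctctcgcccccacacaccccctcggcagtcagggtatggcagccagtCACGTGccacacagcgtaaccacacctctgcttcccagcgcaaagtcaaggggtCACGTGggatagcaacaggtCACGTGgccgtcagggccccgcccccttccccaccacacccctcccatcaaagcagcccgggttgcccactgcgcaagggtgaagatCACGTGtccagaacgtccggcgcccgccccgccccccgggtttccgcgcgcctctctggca
Cdk6: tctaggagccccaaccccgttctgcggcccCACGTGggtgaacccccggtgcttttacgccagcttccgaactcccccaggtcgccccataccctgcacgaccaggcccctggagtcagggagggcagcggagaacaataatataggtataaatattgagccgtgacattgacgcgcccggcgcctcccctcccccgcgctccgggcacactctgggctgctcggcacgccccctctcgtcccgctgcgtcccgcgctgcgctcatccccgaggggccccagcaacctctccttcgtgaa
Cdk2: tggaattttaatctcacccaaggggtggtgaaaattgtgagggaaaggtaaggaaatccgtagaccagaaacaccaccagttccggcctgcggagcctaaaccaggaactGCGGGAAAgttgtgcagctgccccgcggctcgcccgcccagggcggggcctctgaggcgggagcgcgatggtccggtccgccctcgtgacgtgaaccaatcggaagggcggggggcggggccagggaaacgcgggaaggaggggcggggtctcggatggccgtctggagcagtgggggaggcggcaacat
Cdc25a: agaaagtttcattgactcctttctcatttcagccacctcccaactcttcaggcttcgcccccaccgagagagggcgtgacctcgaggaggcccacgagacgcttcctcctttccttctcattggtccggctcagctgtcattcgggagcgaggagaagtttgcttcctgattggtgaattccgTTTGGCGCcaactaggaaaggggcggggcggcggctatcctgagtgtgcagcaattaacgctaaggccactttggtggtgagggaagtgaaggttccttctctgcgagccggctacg

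The Cdk4 window holds 4 E-boxes, which begin 172, 118, 98 and 11 bases before the start. A count of 4 or more was found in 8 of all 32851 windows (0.0244%). This cut was not planned and equals the count in the Cdk4 window itself, so the share is a description only. The Cdk6 window holds 1 E-box, 220 bases before the start, so of the genes with an E-box 1 was lower in Max-KO and 1 did not pass the threshold. The Cdk2 window holds TTTCCCGC on the opposite strand, 140 bases before the start, and the Cdc25a window TTTGGCGC, 67 bases before it. Cdk2 was higher and Cdc25a lower in Max-KO. Neither the Ccne1 window, the E2f1 window nor the 2 Ccnd3 windows hold any of the 5 motifs in these letters. The E2f1 window (chr2:154569377-154569676, minus strand) lies inside the gene, whose 5′ end in GENCODE is at 154569892. The bases before that end were not searched, so nothing is said here of motifs there. The Cdk6 window and the Ccnd3 window at 47593217 to 47593516 also lie inside their genes. A match is a description of sequence, and binding was not measured here.

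Cdc25a, the phosphatase that activates CDK2 (ENSMUSG00000032477; chromosome 9, 109875579 to 109893895, plus strand), had 30.1, 31.0 and 27.3 FPKM in Max-KO, against 41.2, 41.3 and 43.6 FPKM in WT. All Max-KO libraries were below all WT libraries. The log2 difference was -0.50 ± 0.07 (SE, 95% interval -0.66 to -0.34; limma, adjusted p = 5.67e-04), and -0.28 after rescaling to TPM, where it still passed (limma, adjusted p = 9.19e-03). Its direction was thus opposite to that of Cdk2 in the same libraries.

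The D cyclins were dominated by Ccnd3 and Ccnd1 in both groups. Ccnd3, which encodes cyclin D3 (ENSMUSG00000034165; chromosome 17, 47505051 to 47599691, plus strand), had 94.0, 82.3 and 93.1 FPKM in Max-KO, against 108.0, 106.1 and 127.6 FPKM in WT. The groups lay close but did not overlap. On the log2 scale the difference was -0.34 ± 0.09 (SE, 95% interval -0.55 to -0.13; limma, adjusted p = 0.0127), and after rescaling to TPM it was -0.11 and did not pass (limma, adjusted p = 0.255). With median-ratio scaling it was -0.53 and passed (limma, adjusted p = 2.46e-03). Bysl, a ribosome assembly gene on the opposite strand that shares 4.1% of the exonic bases of Ccnd3, averaged 18.1 ± 0.414 FPKM in Max-KO and 26.9 ± 2.08 FPKM in WT (SD, n = 3 each). Bysl was called lower, with a log2 difference of -0.54 (limma, adjusted p = 5.59e-04), and its part in the Ccnd3 value was not tested. The only pseudogene that carries the name of Ccnd3, Ccnd3-ps, was listed at 0 in all 6 libraries.

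Ccnd1, which encodes cyclin D1 (ENSMUSG00000070348; chromosome 7, 144929931 to 144939925, minus strand), had 47.1, 37.9 and 38.4 FPKM in Max-KO, against 42.4, 42.7 and 47.2 FPKM in WT. The groups overlapped, with Max-KO 1 beside WT 3 at the top and the other Max-KO libraries at the bottom. Max-KO minus WT gave a log2 difference of -0.10 ± 0.10 (SE, 95% interval -0.33 to 0.12; limma, adjusted p = 0.374). It was 0.12 after rescaling to TPM (limma, adjusted p = 0.281) and passed as lower under median-ratio scaling (-0.29, limma adjusted p = 0.0354), so its direction depended on the scaling. Exons of LTO1, a ribosome biogenesis gene on the opposite strand, share 23.4% of the exonic bases of Ccnd1, and LTO1 averaged 12.1 ± 4.84 FPKM in Max-KO and 6.25 ± 0.635 FPKM in WT (SD, n = 3 each). LTO1 was called higher, with a log2 difference of 0.80 (limma, adjusted p = 0.0247). Like Ccnd1, LTO1 was highest among Max-KO libraries in Max-KO 1, at 17.5 FPKM, and its part in the Ccnd1 value was not tested.

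Ccnd2, which encodes cyclin D2 (ENSMUSG00000000184; chromosome 6, 127125162 to 127152193, minus strand), had 3.78, 3.85 and 2.24 FPKM in Max-KO, against 1.01, 0.88 and 0.84 FPKM in WT. It was the lowest of the 10 genes in both groups, and Max-KO 3 lay between the other Max-KO libraries and WT. The ratio of the group means was 3.62, and the log2 difference was 1.14 ± 0.18 (SE, 95% interval 0.73 to 1.56; limma, adjusted p = 1.06e-03). At such low values its size depended on the settings: it was 1.71 with a pseudocount of 0.1 and 0.68 under quantile normalization, and passed with both (limma, adjusted p = 8.21e-04 and 0.0129). The WT mean of 0.91 FPKM was under the filter of 1 FPKM, so Ccnd2 was tested only because it was higher in Max-KO. Of the antisense genes over Ccnd2, Gm43126 was listed at 1.36 FPKM in Max-KO 3 and 0.20 FPKM in WT 1 and at 0 elsewhere, and 9330179D12Rik at 0 in all 6 libraries. With no filter Ccnd2 had the same log2 difference and passed as well (limma, adjusted p = 3.15e-03).

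The 3 D cyclins summed to 144.9, 124.1 and 133.7 FPKM in Max-KO, against 151.4, 149.6 and 175.6 FPKM in WT. Ccnd3 held 66.95 ± 2.43% of this sum in Max-KO and 71.6 ± 0.91% in WT (SD, n = 3 each). Ccnd2 held 2.46 ± 0.72% in Max-KO and 0.58 ± 0.09% in WT, so its rise added little to the total.

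E2f1, which encodes an activator among the E2F factors (ENSMUSG00000027490; chromosome 2, 154559407 to 154569892, minus strand), had 12.6, 12.8 and 12.7 FPKM in Max-KO, against 16.9, 15.4 and 16.6 FPKM in WT. The Max-KO libraries were nearly equal to each other and all below WT. The log2 difference was -0.34 ± 0.07 (SE, 95% interval -0.49 to -0.18; limma, adjusted p = 3.79e-03). After rescaling to TPM it was -0.12 and did not pass (limma, adjusted p = 0.158). With median-ratio scaling it was -0.52 and under quantile normalization -0.58, and it passed under both (limma, adjusted p = 5.70e-04 and 3.44e-04).

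**Figure D3:**
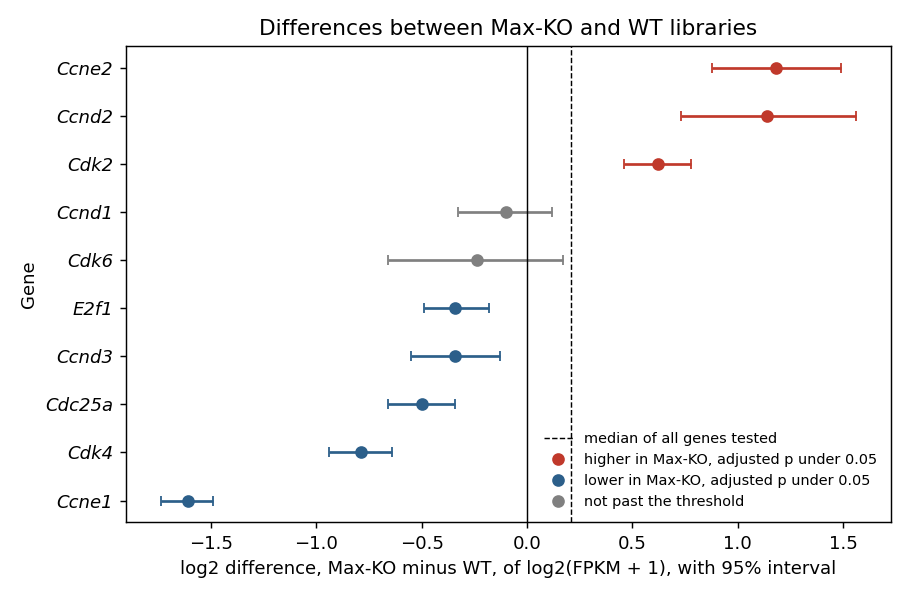
Log2 difference, Max-KO minus WT, of log2(FPKM + 1) for each gene with its 95% interval; the dashed line is the median of all genes tested, 0.21. Ccne2, Ccnd2 and Cdk2 lie to the right of both lines and Ccne1 farthest to the left, at -1.61.

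The order of levels in FPKM among the 10 genes, given as a description, differed between the groups. In Max-KO it ran Cdk4 (121), Ccnd3 (89.8), Cdk2 (59.1), Ccnd1 (41.1), Ccne1 (36.7), Cdc25a (29.5), Ccne2 (19.6), E2f1 (12.7), Cdk6 (6.65) and Ccnd2 (3.29 FPKM). In WT it ran Cdk4 (210.2), Ccne1 (114), Ccnd3 (114), Ccnd1 (44.1), Cdc25a (42.0), Cdk2 (38.1), E2f1 (16.3), Ccne2 (8.14), Cdk6 (7.92) and Ccnd2 (0.91 FPKM). Neighbours whose libraries overlapped were Ccnd1 and Ccne1 in Max-KO, and Ccne1 and Ccnd3, Ccnd1 and Cdc25a, and Ccne2 and Cdk6 in WT. Ccne1 had rank 5 in Max-KO and rank 2 in WT, and Cdk2 rank 3 in Max-KO and rank 6 in WT. The ratio of Ccne1 to Cdk2 averaged 0.622 ± 0.0293 in Max-KO and 3.01 ± 0.291 in WT (SD, n = 3 each). Cdk6 and Ccnd2 varied most among the Max-KO libraries, with an SD of 27.0% and 27.7% of their mean.

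**Figure D4:**
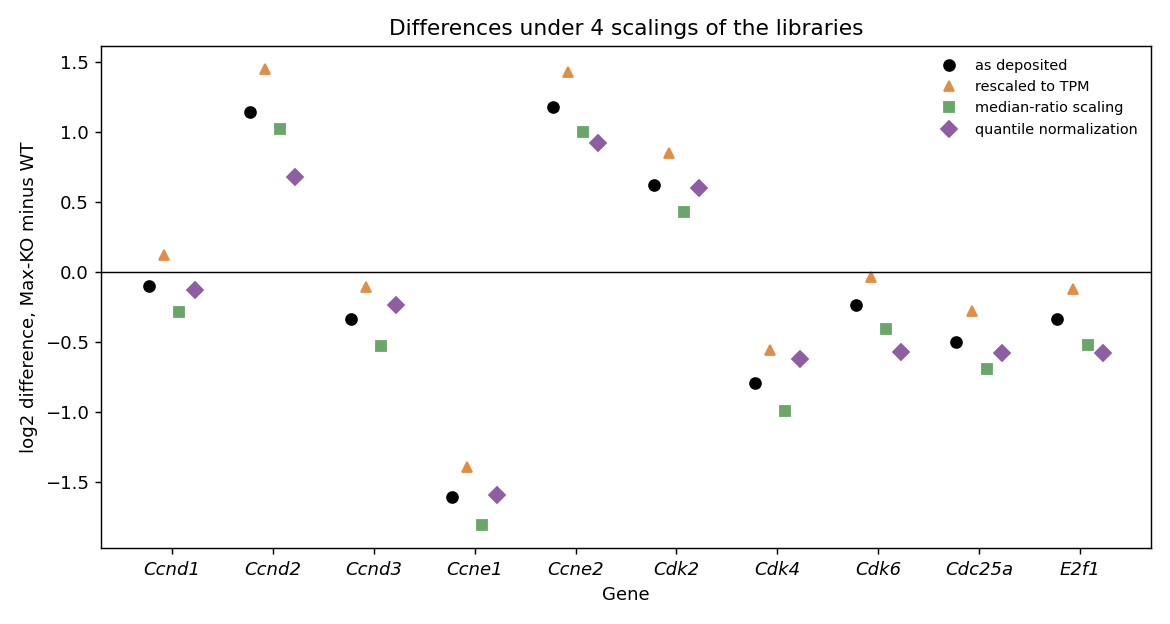
Log2 difference, Max-KO minus WT, of each gene with values as deposited and under 3 other scalings of the libraries. Ccnd1 is the gene whose points lie on both sides of 0; Ccne1 stays between -1.81 and -1.39 and Ccne2 between 0.92 and 1.43.

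Genes that act with the 10 were counted in lists. In the RB and E2F family 4 of 12 genes tested were higher in Max-KO and 4 lower, beside 43.0% higher and 23.2% lower among all genes tested. The median log2 difference of the family was 0.11, against 0.21 for all genes tested. The higher ones were Rb1 and Rbl1, both pocket proteins that hold E2F factors in check, the repressor E2f6 and the E2F partner Tfdp2. The lower ones were E2f4, which works mainly with pocket proteins, the repressors E2f7 and E2f8, and Tfdp1. E2f6 averaged 21.1 ± 1.16 FPKM in Max-KO and 10.4 ± 0.762 FPKM in WT (SD, n = 3 each; log2 difference 0.96 ± 0.08 SE, limma adjusted p = 6.63e-05). E2f8 averaged 5.37 ± 0.857 FPKM in Max-KO and 10.9 ± 0.425 FPKM in WT (log2 difference -0.91 ± 0.12 SE, limma adjusted p = 4.25e-04). Rescaling to TPM gave 7 higher, and quantile normalization 2.

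E2F target genes of S phase did not move as 1 group. Of 30 genes tested 7 were higher in Max-KO and 15 lower, beside 43.0% higher and 23.2% lower among all genes tested, with a median of -0.16. Mcm10, a replication initiation factor, averaged 29.1 ± 0.993 FPKM in Max-KO and 81.3 ± 2.91 FPKM in WT (SD, n = 3 each; log2 difference -1.45 ± 0.06 SE, limma adjusted p = 3.43e-06). Pole, the catalytic subunit of DNA polymerase epsilon, averaged 63.1 ± 1.66 FPKM in Max-KO and 43.9 ± 1.03 FPKM in WT (log2 difference 0.51 ± 0.05 SE, and 0.32 with median-ratio scaling). The split depended on the scaling, with 11 higher and 9 lower after rescaling to TPM and 2 higher and 19 lower under median-ratio scaling.

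Other cyclins and CDKs, with kinases and phosphatases that act on CDKs, had 6 of 12 genes tested lower in Max-KO and 0 higher (limma), beside 23.2% lower and 43.0% higher among all genes tested. Their median was -0.22, and at an unadjusted p under 0.05, 1 gene was higher. The 6 were Ccnb1, Cdk1, Ccnh, Mnat1, Cdc25b and Wee1. Wee1 encodes a kinase that inhibits CDK1, so the list is not made of activators alone, and Pkmyt1, another such kinase in it, did not pass the threshold. Cdc25b, a phosphatase that activates CDK1, averaged 9.36 ± 0.286 FPKM in Max-KO and 16.5 ± 0.665 FPKM in WT (SD, n = 3 each; log2 difference -0.75 ± 0.07 SE, limma adjusted p = 1.05e-04). Median-ratio scaling gave 9 lower. The number higher was 2 after rescaling to TPM, 1 with no filter and 1 without Max-KO replicate 3. Among 7 CDK inhibitors 3 were higher and 2 lower, near the 43.0% and 23.2% of all genes tested. Cdkn2c, among the higher ones, averaged 1.05 FPKM in Max-KO and 0.31 FPKM in WT, so it was tested only because it was higher in Max-KO. CDK inhibitors called higher numbered 2 with a minimum mean of 5 FPKM, under quantile normalization and without Max-KO replicate 1. Quantile normalization gave 3 lower. Cdkn2d, an inhibitor of CDK4 and CDK6, averaged 16.0 ± 0.320 FPKM in Max-KO and 9.57 ± 0.738 FPKM in WT, and Cdkn1c, an inhibitor of cyclin E with CDK2, averaged 6.62 ± 1.19 FPKM in Max-KO and 14.2 ± 3.33 FPKM in WT (SD, n = 3 each).

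Genes for the turnover of D and E cyclins and of CDC25A had 7 of 15 genes tested higher in Max-KO and 5 lower, beside 43.0% higher and 23.2% lower among all genes tested, with a median of 0.18. Fbxw7, which marks cyclin E for destruction, averaged 23.9 ± 2.15 FPKM in Max-KO and 12.8 ± 1.73 FPKM in WT (SD, n = 3 each; log2 difference 0.86 ± 0.11 SE, limma adjusted p = 5.35e-04). Cks1b, a CDK-binding subunit that works with Skp2, averaged 119 ± 2.48 FPKM in Max-KO and 185 ± 10.6 FPKM in WT (log2 difference -0.63 ± 0.06 SE, and -0.40 after rescaling to TPM). Median-ratio scaling gave 4 higher and 7 lower, quantile normalization 4 higher, and rescaling to TPM 9 higher and 2 lower.

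In the RAS-ERK, PI3K-AKT and WNT genes that feed into D cyclins 8 of 18 were higher in Max-KO and 3 lower, near the 43.0% and 23.2% of all genes tested, with a median of 0.15. Axin2, a feedback gene of WNT signalling, averaged 10.2 ± 3.28 FPKM in Max-KO and 2.09 ± 0.111 FPKM in WT (SD, n = 3 each; log2 difference 1.82 ± 0.20 SE, limma adjusted p = 1.99e-04). Akt1, a kinase of the PI3K pathway, averaged 7.80 ± 1.14 FPKM in Max-KO and 24.2 ± 1.49 FPKM in WT (log2 difference -1.52 ± 0.11 SE, limma adjusted p = 3.15e-05). The 3 lower genes were Akt1, Mapk3 and Hras. Under median-ratio scaling 4 were higher and 5 lower.

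**Figure D5:**
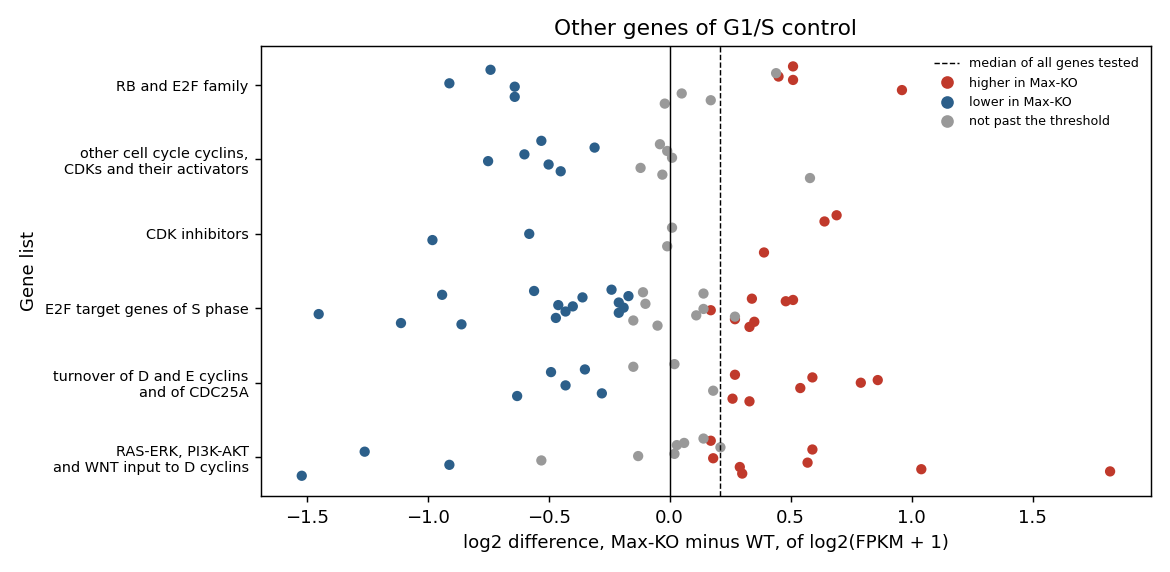
Log2 difference, Max-KO minus WT, of each gene tested in the 6 lists of G1/S control; red points were called higher in Max-KO, blue points lower and grey points neither, and the dashed line is the median of all genes tested, 0.21. Every list but that of other cell cycle cyclins and CDKs holds calls on both sides of 0.

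Over the 6 libraries the genes tested whose log2(FPKM + 1) followed Ccne1 most closely were Flywch1, Bhlha15 and Yars, with Pearson r of 0.9998, 0.9997 and 0.9997. Those closest to Ccne2 were Gm6802, Dubr and Nlk, with r of 0.9998, 0.9993 and 0.9988. The points are 3 libraries in each of 2 groups, so any gene with tight, well separated groups comes close to 1.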

How the data were processed

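RNA of 6 libraries was extracted with Trizol and made into libraries with an Illumina TruSeq RNA kit, per the labels' protocols. The authors deposited FPKM (fragments scaled to transcript length and library depth) to 2 decimals for every gene of a library. The submitters' processing notes list build GRCm38.p6, HISAT2 2.1.0, DESeq 1.26.0, FastQC and RSEM, with no role or order. The sources used here do not say if strand was kept, and without it reads of genes overlapping on opposite strands cannot be told apart. Symbols and coordinates came from GENCODE M21, which held all 55536 Ensembl identifiers; 1153 loci without a gene name were left out.

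Depth was estimated from low values: in genes with 1 transcript, FPKM multiplied by the length less 260 to 265 bases fell within 0.15 of a whole multiple of 1 step in 65.5% to 71.2% of cases, with step and offset fitted to these values. In a 2 kb transcript 1 FPKM then stood for about 36.6 to 49.6 fragments.

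The fit used limma 3.58.1 (R 4.3.3) on log2(FPKM + 1) of genes averaging 1 FPKM or more in either group, 2-sided, with moderated variance (trend, robust) and genotype alone, Benjamini-Hochberg adjusted over all genes and tested on simulated data. A log2 difference is Max-KO minus WT on this scale, which understates the change of low genes. The genes and lists were chosen with earlier results of these data known. Pathway genes given with values are the largest rise and fall called in each list. Marker genes named singly, Rb1 and other genes named to spell out a count were picked after their values were seen. Alternatives were another pseudocount, 2 filters, 3 scalings, plain moderation, a replicate block and leaving out each library. Python 3.11.15, numpy 2.4.6, pandas 2.3.3 and matplotlib 3.10.9 served for tables and figures.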

Additional observations from a re-analysis of the deposited data

How the results depend on the processing

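Of the 10 genes, Ccne1, Ccne2, Cdk2, Cdk4 and Cdc25a kept their direction and their call under all 14 alternatives, and Ccnd2 under the 13 in which it was tested: with a minimum mean of 5 FPKM it was not. Rescaling to TPM reversed Ccnd1 (0.12), ended the calls of Ccnd3 (-0.11) and E2f1 (-0.12) and left 3 lower genes in place of 5. Median-ratio scaling brought Ccnd1 past the threshold (-0.29), and quantile normalization Cdk6 (-0.57), as did leaving out Max-KO replicate 2 (-0.42). Leaving out each library in turn, the genes called numbered 3 higher and 5 to 6 lower, Ccnd1 ranged from -0.20 to -0.05 and Cdk6 from -0.42 to -0.10. Same-numbered libraries showed correlations of their deviations of -0.001, 0.016 and 0.086, so little sign of a shared effect of the number was seen. Whether same-numbered libraries were made as pairs is not given, and these values cannot tell. With a replicate block 6203 genes were higher and 3282 lower in place of 6300 and 3403, and 3 and 5 of the 10 genes, with Ccne1 at -1.61. Ccnd2 had the lowest level, at 0.84 to 1.01 FPKM in WT, where 1 FPKM stands for about 39.2 to 43.7 fragments in a 2 kb transcript. Its annotated exons cover 9409 bases over 8 transcripts, so this figure is not its own, and how far depth limits it was not computed. The SD of Ccnd2 was 9.8% of its mean in WT and 27.7% in Max-KO.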
